A study of Mus musculus with 16 samples.

Results

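Mouse gene symbols made of Gm and a number stand for predicted gene models that have not been given a functional name. The set described here holds every gene with such a symbol whose mean level over the 16 libraries of the study was at least 3 CPM, the count per library total scaled to a common size for all libraries. It has 286 members among 23777 numbered Gm genes in a table of 55416 gene IDs. Of those 23777 genes, 7476 had at least 1 count. Members were thus chosen by their mean count level over all libraries, with no comparison between groups. Just inside the threshold were Gm44291 (mean CPM 3.04), Gm47507 (3.04) and Gm48978 (3.01), and just outside were Gm16638 (2.99), Gm6225 (2.98) and Gm19040 (2.97). All 286 members passed the filter on low counts, and none was left out.

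The study measured total RNA of mouse macrophages of the Hoxb8 line, bone marrow cells of an immortalized progenitor line that were turned into macrophages, in 4 groups of 4 libraries. The groups were macrophages kept alone (Alone) and macrophages incubated for 45, 90 or 180 min with apoptotic Jurkat cells, a human T cell leukemia line, to follow efferocytosis, the uptake and digestion of dead cells. The labels name no genetic change or other agent that sets any group apart, and they name 1 macrophage line for all groups. The labels do not name separate cultures, and a p-value here reflects no more than the scatter among the libraries, which may be technical. Ribosomal RNA was depleted and the RNA was not selected for poly(A) tails in any step the labels name.

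Libraries held 10690809 to 41688999 counts, with 24378422 to 41688999 at 45 min, 13595345 to 17421443 at 90 min and 10690809 to 23423640 at 180 min. Depth and RNA makeup moved with the groups. Mitochondrial genes took 4.21% to 4.71% of counts in macrophages alone, 3.34% to 3.76% at 45 min, 5.12% to 6.40% at 90 min and 6.44% to 7.75% at 180 min. Without mitochondrial genes in the total, the members' share of counts differed from macrophages alone by -0.0586 percentage points at 45 min and 0.0489 at 90 min (exact permutation p = 0.0286 each; -0.0514 and 0.0380 with them, exact permutation p = 0.0571 each). The part of mitochondrial RNA in the calls was not tested. All 10 macrophage markers, such as Csf1r and Cd68, were present in each group, with a summed level of 9882 to 12642 CPM. Of 10 T cell markers 5 were at 0 in all 16 libraries, and the 10 summed to 8.90 to 14.4 CPM.

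Total RNA libraries without poly(A) selection contain nascent and unspliced transcripts beside mature mRNA. An intron is removed while or soon after RNA polymerase II passes it, and the excised RNA is usually degraded in the nucleus, so the level of intronic RNA depends on how much of a gene is being transcribed and on how long the intron persists. Annotation projects place many single-exon models inside introns, often from cDNA clones or read clusters. Where such a model lies on the strand of its host gene, a read from unspliced host RNA and a read from a transcript of its own cannot be told apart in a count table.

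By their position in the GENCODE M21 annotation, 92 members were intronic, that is, they lay within a coding gene on its strand and touched none of its exons. The other members were 63 intergenic noncoding genes, 40 antisense to a coding gene, 37 protein-coding genes, 36 pseudogenes, 13 noncoding genes overlapping an exon of a coding gene and 5 small RNA genes. The most frequent biotype was TEC, the label for models that still need experimental proof, with 102 members, followed by 45 long intergenic noncoding RNAs. The 92 intronic members lay in 79 host genes, of which 10 held several, 23 members together. The 286 members formed 262 loci when neighbours within 50 kb were joined, so members of 1 locus are not independent of each other.

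Of the 286 members, 69 were called at 45 min against Alone, 91 at 90 min and 120 at 180 min, where a call is an adjusted p under 0.05 in edgeR's quasi-likelihood test. Of all 14168 genes tested 10.8%, 21.1% and 31.1% were called at those times. At 45 min 9 members rose and 60 fell, where 4.69% of all genes rose and 6.11% fell. At 90 min 78 rose and 13 fell, against 11.1% and 9.97% of all genes. At 180 min 78 rose and 42 fell, against 15.1% and 16% of all genes. The median log2 fold change of the members was -0.15 at 45 min, 0.21 at 90 min and 0.17 at 180 min, and that of all genes was 0.00, 0.00 and 0.01. The 3 comparisons share the libraries of macrophages alone. In the test over all 3 times 200 members were called, 69.9% of them, where 44.6% of all genes were called, and 71 members were called in none of the 6 pairwise comparisons.

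Removing a smooth trend of the counts on gene length and GC content changed the picture at 45 min more than at the later times. Under it 17 members rose and 36 fell at 45 min, all 36 of them among the 60, where 7.23% and 3.26% of all genes did in the same fit, and the members' median was -0.00. At 90 min 64 rose and 24 fell, against 9.75% and 15.4% of all genes. At 180 min 71 rose and 48 fell, against 12.7% and 21.5%.

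**Figure D1:**
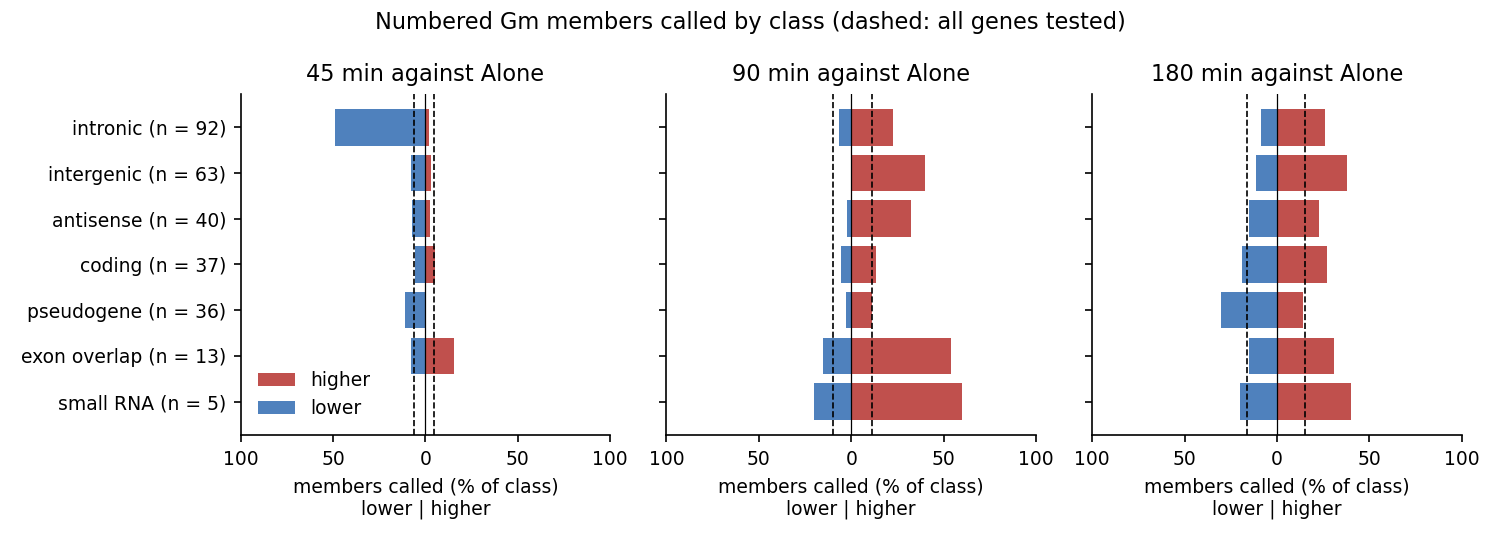
Share of each class of members called higher (red, to the right) or lower (blue, to the left) against macrophages alone, in percent of the class, at 45, 90 and 180 min. The dashed lines are the shares over all 14168 genes tested. The intronic class has the long bar to the left at 45 min (45 of 92 members), and at 90 min the intergenic class has 25 of 63 members higher and none lower.

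The intronic members carried most of the fall at 45 min. Of the 92, 45 fell and 2 rose, 22 of the 45 by more than 2-fold, and the median log2 fold change of all 92 was -0.48. In 41 of the 92, 37 of them among the 45, all libraries at 45 min lay below all libraries of macrophages alone. Over all genes tested, 8.77% had such separate groups in that direction. With the trend on length and GC content removed 30 of the 45 still fell, and the median of all 92 was -0.35. Among the 45, 40 were higher at 90 min than at 45 min and 41 were higher at 180 than at 45 min (14.8% and 18.3% of all genes). The 45 were chosen by the same low libraries at 45 min, which favours such rises. Against macrophages alone 4 of the 45 were lower and 5 higher at 90 min, and 5 were lower and 7 higher at 180 min. Of all genes 9.97% fell and 11.1% rose at 90 min, and 16% fell and 15.1% rose at 180 min.

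Across all 92 intronic members, 66 rose and 1 fell from 45 to 90 min, where 14.8% of all genes rose and 13.3% fell, and the median change was 0.86 on the log2 scale. From 45 to 180 min 68 rose and 3 fell, against 18.3% and 18% of all genes. From 90 to 180 min 2 rose and 6 fell, against 4.45% and 6.97%. Against macrophages alone 21 intronic members rose and 6 fell at 90 min (22.8% and 6.52%), against 11.1% and 9.97% of all genes, with a median of 0.22. At 180 min 24 rose and 8 fell (26.1% and 8.7%), against 15.1% and 16% of all genes, with a median of 0.25. The group mean was lowest at 45 min for 77 of the 92 intronic members and for 68 of the 194 others.

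Gm43274, inside Med13l (a subunit gene of the Mediator kinase module), had the largest fall of any member at 45 min. Its 4 libraries of macrophages alone had 5.48, 4.11, 3.51 and 5.15 CPM, scaled with TMM factors as are all CPM values from here on, and the libraries at 45 min had 1.54, 1.84, 1.28 and 0.484. The groups did not overlap. At 90 min the values were 2.85, 4.36, 3.40 and 5.34 and at 180 min 2.79, 2.48, 3.19 and 4.04, closer to macrophages alone than at 45 min. The log2 fold change at 45 min was -1.85 ± 0.27 (SE, adjusted p = 7.75e-07), and that of Med13l itself was -0.07 (adjusted p = 0.426). Gm43788, a second model in the same gene, chosen for this after its values were seen, changed by -1.16.

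Gm45191, inside Prkcb, the gene of protein kinase C beta, is a longer and more abundant example. Macrophages alone had 13.1, 11.2, 8.57 and 12.6 CPM and the 45 min libraries 3.11, 4.53, 2.97 and 3.07. At 90 min 3 libraries lay between 7.64 and 8.96 and the fourth at 15.3, and at 180 min the values were 6.82, 11.3, 11.6 and 11. Only the 45 min libraries stood apart from the rest. The change at 45 min was -1.73 ± 0.18 (SE, adjusted p = 3.40e-11).

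Gm38346, inside the transcription factor gene Fli1, and Gm45477, inside Gatad2b, which encodes a subunit of the NuRD chromatin complex, fell by 1.66 and 1.67 on the log2 scale at 45 min. Gm38346 had 3.77 ± 1.17 CPM (SD, n = 4) in macrophages alone, 1.18 ± 0.24 at 45 min, 3.96 ± 0.64 at 90 min and 4.07 ± 0.59 at 180 min. Gm43775, inside the RNA-binding protein gene Rbm47, changed by -1.5 at 45 min and was not called at 90 or 180 min against Alone. The members Gm37033 and Gm36933, both inside Itpkb (an inositol trisphosphate kinase gene), fell together, by 1.22 and 1.39 on the log2 scale.

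**Figure D2:**
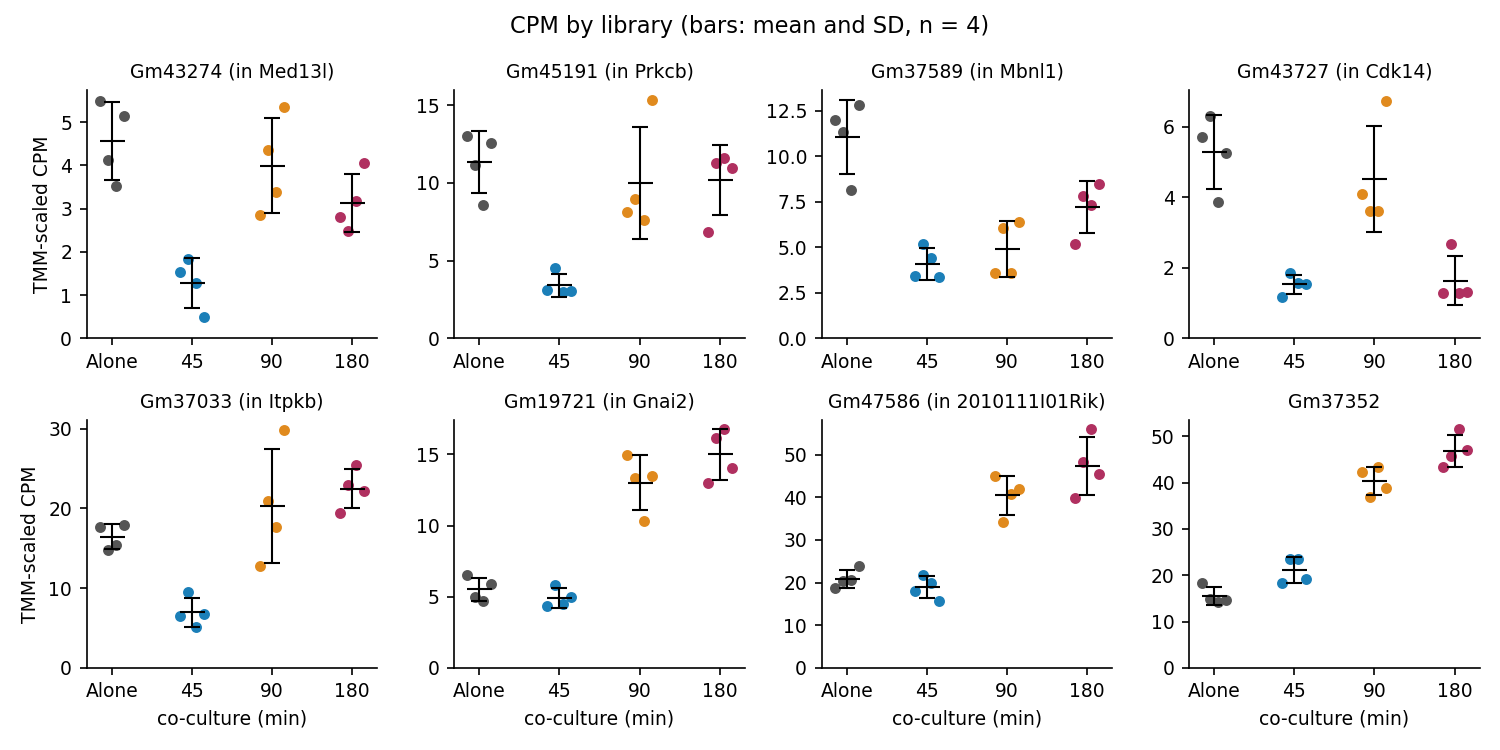
CPM (TMM-scaled, axes from 0) of 8 members in every library, by minutes of co-culture; points are libraries and bars are the mean and SD of 4. Gm43274, Gm45191 and Gm37033 drop at 45 min and are back near or above the level of macrophages alone at 90 min; Gm37589 stays low at 90 min; Gm43727 is low at 45 and at 180 min; Gm19721, Gm47586 and Gm37352 are higher at 90 and 180 min.

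A few intronic members were low at later times too. Gm29488, inside Srgap2 (a regulator of Rac signalling and membrane shape), had 8.33, 8.62, 5.10 and 9.01 CPM in macrophages alone, 3.17 to 4.15 at 45 min, 2.48 to 5.17 at 90 min and 1.84 to 3.74 at 180 min. It was called lower at each of the 3 times, with changes of -1.07, -1.09 and -1.36. Gm37589, inside the splicing regulator gene Mbnl1, fell by 1.44, 1.15 and 0.61 at the 3 times. Gm45222, inside Picalm (a clathrin adaptor gene), fell by 1.14 and 0.73 at 45 and 90 min and had a log2 fold change of -0.11 at 180 min (adjusted p = 0.647), with a rise of 1.03 from 45 to 180 min, whereas Picalm mRNA rose by 0.37 at 90 min and 0.52 at 180 min. Gm43727, inside Cdk14, was low at 45 min, higher again at 90 min and low at 180 min: it had 5.28 ± 1.05 CPM (SD, n = 4) in macrophages alone, 1.54 ± 0.27 at 45 min, 4.51 ± 1.5 at 90 min and 1.63 ± 0.69 at 180 min.

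Both intronic members called higher at 45 min had small changes. Gm17024, inside Ifrd1, rose by 0.61 (adjusted p = 0.0235) and Gm47260, inside the RNA helicase gene Ddx24, rose by 0.40 (adjusted p = 0.0201). Neither call was stable: the first was lost with DESeq2 (log2 fold change 0.61), without Alone library 3 (0.53) and without 45 min library 3 (0.52), and the second without Alone library 1 (0.31), without 45 min library 2 (0.31) and with the libraries thinned to 1 depth (0.34).

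At 90 and 180 min several intronic members with large rises lay near the start of their hosts. Of the called rises of intronic members, 11 of 21 at 90 min and 13 of 24 at 180 min lay within 10 kb of it. Gm19721 lies 2.83 kb into Gnai2, the gene of an inhibitory G protein subunit. It had 6.49, 4.97, 4.72 and 5.90 CPM in macrophages alone, 4.32 to 5.82 at 45 min, 15, 13.3, 10.3 and 13.5 at 90 min and 13, 16.2, 16.8 and 14 at 180 min. The groups at 90 and 180 min did not overlap with the other groups, and the changes were 1.24 ± 0.14 and 1.44 ± 0.14 (SE; adjusted p = 4.88e-10 and 7.90e-13). Gnai2 itself fell by 0.19 and 0.17. Gm38357 lies 7.47 kb into Noct, a circadian phosphatase gene, and rose by 1.41 and 1.22; Noct rose by 0.89 and 0.74. Gm44668, 1.88 kb into the transcription factor gene Mef2a, rose by 1.10 and 1.05, while Gm44667 in the same gene, 100.6 kb from its start, had values of -0.19 and 0.09 that were not called. Gm48302, 20.5 kb into the elongation factor gene Ell2, rose by 0.89 and 1.10.

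Gm47586 lay far from the host start, 279.3 kb into 2010111I01Rik. It had 18.8, 20.4, 20.5 and 23.9 CPM in macrophages alone and 15.8 to 21.8 at 45 min, groups that overlap. At 90 min it had 34.2 to 45.0 and at 180 min 39.9 to 56.1, above every library of the earlier groups. It rose by 0.96 and 1.19, and its host rose by 1.09 and 1.30, so the difference between member and host was -0.14 and -0.13 (adjusted p = 0.797 both times).

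Over the class, position in the host went with the change. The 31 intronic members within 10 kb of the host start had median log2 fold changes of -0.33, 0.45 and 0.50 at 45, 90 and 180 min against Alone. The 31 members between 10 and 50 kb had -0.63, 0.17 and 0.22, and the 30 members farther than 50 kb had -0.79, -0.09 and -0.14. Of the members within 10 kb 8 fell at 45 min and 11 rose at 90 min. Between 10 and 50 kb 19 fell and 5 rose at those times, and beyond 50 kb 18 fell and 5 rose. Of all genes tested 6.11% fell at 45 min and 11.1% rose at 90 min. The rises beyond 10 kb are nearer that share than those within 10 kb. At 45 and 90 min the counts of calls differed between the nearest members and the rest and were alike at the other distances. This difference was not tested. At 180 min 13 rose and 1 fell within 10 kb, 6 rose and 0 fell between 10 and 50 kb, and 5 rose and 7 fell beyond 50 kb. Over all genes 15.1% rose and 16% fell at 180 min. Spearman's rho between distance and change was -0.33 at 45 min, -0.44 at 90 min and -0.45 at 180 min over the 92 members, which share libraries and in part hosts. Host span was correlated with the change as well (-0.42, -0.22 and -0.36), as was the member's own exonic length (-0.31, -0.32 and -0.30). GC content gave 0.08, 0.19 and 0.06. For the change from 45 to 90 min the rho with distance was -0.01.

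**Figure D3:**
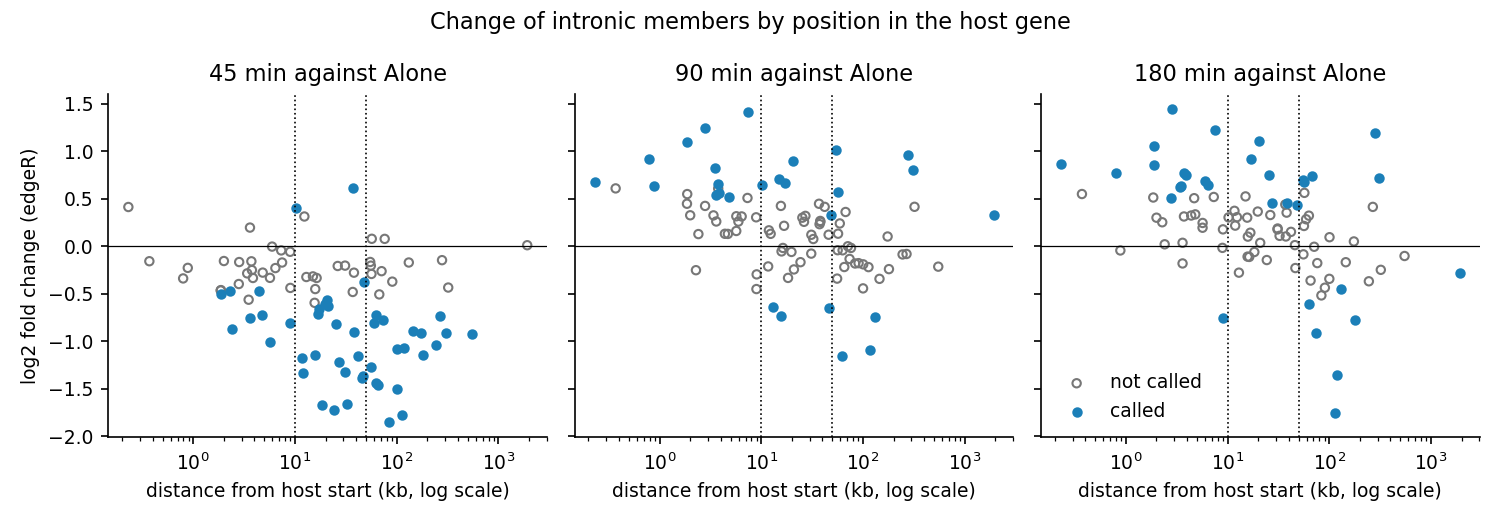
Log2 fold change against macrophages alone (vertical) of the 92 intronic members by their distance from the start of the host gene in kb (horizontal, log scale), at 45, 90 and 180 min. Filled points are called members, open points are not called, and dotted lines mark 10 and 50 kb. Of the called rises 11 of 21 at 90 min and 13 of 24 at 180 min lie within 10 kb, and the deepest falls at 45 min lie beyond 10 kb.

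The host genes changed often and by small amounts, in both directions. Among the 78 tested hosts 16 fell and 3 rose at 45 min, against 6.11% and 4.69% of all genes, none by more than 2-fold. At 90 min 20 rose and 13 fell (25.6% and 16.7%), against 11.1% and 9.97% of all genes. At 180 min 21 rose and 22 fell (26.9% and 28.2%), against 15.1% and 16%. The medians at the 3 times were -0.03, 0.00 and -0.02. Over the 3 times 56 hosts (71.8%) were called, where 44.6% of all genes were. The table counts a host as 1 value, which does not separate unspliced from mature RNA. To test member against host directly, the counts of both were put in 1 model with the library as a block, over 982 pairs of an intronic noncoding gene and its host, of which 103 were members: 91 intronic members with a tested host, and 7 pseudogenes and 5 small RNA genes inside introns.

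At 45 min 24 of the 103 members fell relative to their host and 0 rose, where 14.7% of the 982 pairs fell and 0% rose. At an unadjusted p under 0.05, 34 members fell and 0 rose; no other tool was run on the pairs. The median difference was -0.44. From 45 to 90 min 34 rose relative to the host and 2 fell, against 20.1% and 0.815% of all pairs, and from 45 to 180 min 44 rose and 1 fell, against 31.7% and 0.407%. Most of the other pairs have lower counts than the members, and the difference between members and other pairs was not tested. From 90 to 180 min 0 members were called in either direction (0% of all pairs), with 3 higher and 3 lower at an unadjusted p under 0.05.

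Against macrophages alone the member and its host were seldom called apart at the later times. Only 4 members rose and 3 fell relative to the host at 90 min (1.43% and 0.815% of all pairs), and 6 rose and 3 fell at 180 min (3.26% and 0.916%). These counts depended on which pairs were fitted. With the fit restricted to 314 pairs with at least 10 counts in every library, which keep all 103 members, 33 fell at 45 min, 10 rose and 7 fell at 90 min and 17 rose and 6 fell at 180 min. In that fit 34.1%, 15% and 21.7% of all 314 pairs were called at those times, about the share of the members. Without 90 min library 4 the 34 rises from 45 to 90 min became 20, without 45 min library 1 they became 22 and without 45 min library 3 they became 21.

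Of the named members, Gm43274 fell relative to Med13l by 1.84 ± 0.35 (SE, adjusted p = 0.00365) at 45 min, Gm45191 relative to Prkcb by 1.69 ± 0.29 and Gm38346 relative to Fli1 by 1.69 ± 0.32 (adjusted p = 0.00365 for each). Gm7497, annotated as a processed pseudogene within the scavenger receptor gene Colec12, fell by 1.51 ± 0.29 relative to it. At 90 and 180 min Gm19721 rose relative to Gnai2 by 1.42 ± 0.22 and 1.61 ± 0.22 (adjusted p = 0.00287 and 0.000479).

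**Figure D4:**
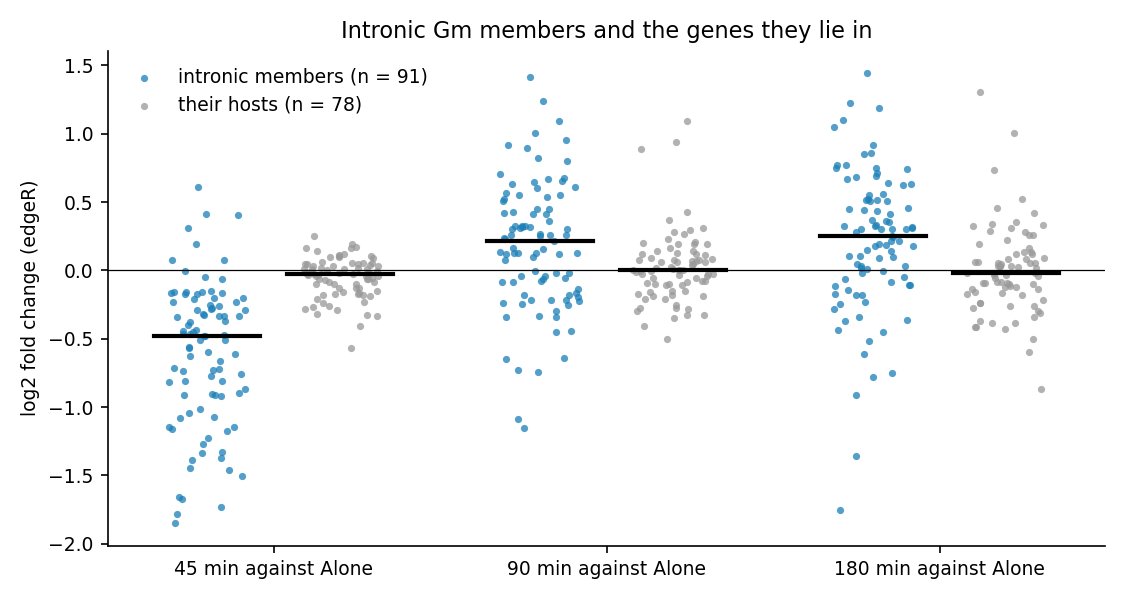
Log2 fold changes against macrophages alone of 91 intronic members (blue) and of their 78 hosts (grey) at 45, 90 and 180 min; each point is 1 gene and the black bar is the median. The members' median is below 0 at 45 min and above it at 90 and 180 min, and the hosts' medians stay near 0.

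Intronic noncoding genes that are no members were also lower at 45 min. Of 567 tested ones with a Gm number under the threshold 129 fell, with a median of -0.86, and of 125 with other names 24 fell, with a median of -0.59. None of either kind rose with edgeR or DESeq2, and 2 and 1 were higher at an unadjusted p under 0.05. The share of all counts in the 92 intronic members was 0.0586% ± 0.0067 (SD, n = 4) in macrophages alone, 0.0410% ± 0.0049 at 45 min, 0.0682% ± 0.0083 at 90 min and 0.0706% ± 0.0089 at 180 min. The libraries at 45 min lay below all those of macrophages alone (exact two-sided permutation test of 4 against 4 libraries, p = 0.0286, the smallest this design can give; 0.0443 after Benjamini-Hochberg adjustment over 48 comparisons of shares).

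Genes known to act on such RNA were read from lists. Of 22 tested genes of the nuclear exosome and its targeting complexes, which degrade excised and aberrant nuclear RNA, 1 rose and 2 fell at 45 min, 5 rose and 1 fell at 90 min and 5 rose and 2 fell at 180 min. The 2 that fell at 45 min were Zfc3h1, the scaffold of the poly(A) tail exosome targeting connection, by 0.21, and Zcchc7, of the nucleolar TRAMP complex, by 0.30. Pabpn1, the nuclear poly(A)-binding protein, rose by 0.68 at 90 min and 0.89 at 180 min. Of 21 genes of premature polyadenylation, the U1 snRNP, Integrator and termination, 1 rose at 45 min, 4 rose and 2 fell at 90 min and 3 rose and 3 fell at 180 min; Pcf11, a termination factor, rose by 0.51 and 0.57 at the later times. Over all genes 4.69% rose and 6.11% fell at 45 min, 11.1% and 9.97% at 90 min and 15.1% and 16% at 180 min. For the exosome list the shares were 4.55% and 9.09%, 22.7% and 4.55%, and 22.7% and 9.09%. For the second list they were 4.76% and 0%, 19% and 9.52%, and 14.3% and 14.3%. Both lists at 45 min and the second at 180 min are near the share over all genes. No list test was run. The medians of both lists lay between -0.01 and 0.16, and that of all genes between 0.00 and 0.01.

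The 7 tested nuclear long noncoding RNAs of the list were split. Kcnq1ot1 and Airn, both very long unspliced antisense transcripts of imprinted loci, fell at 45 min by 1.19 and 0.81. Neat1, the scaffold of paraspeckles, rose by 0.41, 1.25 and 1.32 at the 3 times, and Malat1, of nuclear speckles, by 0.18, 0.79 and 0.67.

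Intergenic members rose at 90 min. Of 63, 25 rose and 0 fell, 10 of them by more than 2-fold, with a median log2 fold change of 0.38. Over all genes 11.1% rose and 9.97% fell at 90 min. With edgeR 2 had an unadjusted p under 0.05 in the lower direction, and with DESeq2 24 rose and 0 fell. At 180 min 24 rose and 7 fell (38.1% and 11.1%), against 15.1% and 16% of all genes. At 45 min 2 rose and 5 fell (3.17% and 7.94%), near the 4.69% and 6.11% of all genes. Intergenic noncoding genes that are no members had a median log2 fold change of 0.44 at 90 min. Of 594 tested, 84 rose (14.1%), near the 11.1% of all genes, and 2 fell (0.337%), against 9.97%.

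Gm37352 and its neighbour Gm26532 on chromosome 8 were among the members with the largest rises. Gm37352 had 14.3 to 18.4 CPM in macrophages alone, 18.4, 23.4, 23.5 and 19.1 at 45 min, 37.0 to 43.3 at 90 min and 43.3 to 51.6 at 180 min. All libraries at 90 and 180 min lay above all earlier ones. The changes were 0.43, 1.37 and 1.59, each called. Gm26532 changed by 1.39 at 90 min and 1.74 at 180 min. Gm13067 and Gm37795, neighbours on chromosome 4, rose by 1.21 and 1.38 at 90 min and by 1.26 and 1.55 at 180 min.

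Gm20559 on chromosome 6, the most abundant intergenic member, peaked at 90 min. Its values were 166, 189, 158 and 180 CPM in macrophages alone, 185 to 202 at 45 min, 335, 297, 287 and 300 at 90 min and 195 to 229 at 180 min. The 90 min libraries lay above all others. It rose by 0.81 at 90 min and fell by 0.51 from 90 to 180 min. Its neighbour Gm43197 went the same way, with 36.9 ± 1.7 CPM (SD, n = 4) in macrophages alone, 68.3 ± 5.5 at 90 min and 40.2 ± 7.1 at 180 min. The call of Gm20559 at 45 min (0.16, adjusted p = 0.0314) was lost without Alone library 1 (0.15), without Alone library 3 (0.14) and without 45 min library 2 (0.16).

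Gm14005 is Morrbid by its RefSeq synonym, a long noncoding RNA next to Bcl2l11 known for controlling the lifespan of myeloid cells; it was chosen after its values were seen. It had 9.18 to 13.7 CPM in macrophages alone, 9.73 to 12.2 at 45 min, 15.8 to 21.1 at 90 min and 16.1 to 19.8 at 180 min. The 2 later groups lay above the 2 earlier ones. The changes were 0.67 and 0.68 (SE 0.12 for each; adjusted p = 1.42e-05 and 4.15e-06).

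Among the 40 antisense members 13 rose and 1 fell at 90 min and 9 rose and 6 fell at 180 min; at 45 min 1 rose and 3 fell. Over all genes 11.1% rose and 9.97% fell at 90 min, 15.1% and 16% at 180 min and 4.69% and 6.11% at 45 min, so the falls at 180 min and both counts at 45 min are near the share over all genes. Gm49774, antisense to the chromatin protein gene Hmga1, rose by 0.70 at 45 min and 0.98 at 90 min. Gm44033 and Gm26982, both antisense to Ghrl, rose at 180 min by 1.24 and 1.10, and Gm15726, antisense to Mid1, by 1.23. The library kit marks strand, but the strand setting of the counting is not given in the sources used here, so reads of an antisense member and of its partner may not be separated.

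The 13 members that overlap an exon may share reads with their partner by position, and how such reads were counted is not given. Gm42793 overlaps Spp1, the gene of the secreted protein osteopontin. It had 2.06 to 3.33 CPM in macrophages alone, 5.96 to 7.56 at 45 min, 6.28 to 9.86 at 90 min and 1.77 to 5.31 at 180 min. The 45 and 90 min libraries lay above all libraries of macrophages alone and of 180 min. The changes were 1.38 and 1.49, and Spp1, at 1920 CPM in macrophages alone and 2099 at 45 min, is far more abundant. Gm49759, which overlaps the glycolytic enzyme gene Pkm, rose at each time, by 0.31, 0.52 and 0.81, while Pkm had 1754, 1930, 1547 and 1591 CPM in the 4 groups.

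The 5 small RNA genes lie inside introns. Gm22009, an annotated scaRNA (a guide RNA of Cajal bodies that directs snRNA modification) of 343 nucleotides within Kpna4, had 24.9 to 35.7 CPM in macrophages alone, 27.1 to 32.9 at 45 min, 36.9 to 64.2 at 90 min and 46.4 to 53.8 at 180 min. The 2 later groups lay above the earlier ones. It rose by 0.76 and 0.73. Gm25395, within the autophagy gene Atg16l1, fell by 0.70 and 0.64 at 90 and 180 min. Libraries of fragmented RNA record short RNAs incompletely, so levels of these genes are not compared with others.

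Of the 10 members with the highest mean CPM 5 are immune GTPases, among them the 2 at the top. Interferon-inducible GTPases are made in macrophages after interferon signals and act on the vacuoles of intracellular pathogens; they include the immunity-related GTPases and the very large inducible GTPases. From RefSeq synonyms and background knowledge 9 members belong to these families, a list made after their values were seen: Gm12250 (Irgb10), Gm12185 (Irgb2b1), Gm5431 (Irgb9b8), Gm4951 (Ifgga2), Gm4841 (Ifgga3), Gm5970 (a pseudogene inside Gm4951), and Gm4070, Gm8995 and Gm1966 of the very large group. Both families hold near-identical copies, and how reads that fit several copies were counted is not given, so the split between copies is uncertain.

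Of the 286 members 62 have an entry in RefSeq's promoter table for GRCm38.p6. The windows of 4 GTPase members, which are known interferon targets, are shown here. These windows are a selection and do not stand for the whole family. Each is the 250 bases before the transcript start, 5′ to 3′ on the gene's strand. Capitals mark matches on either strand to a pair of GAAA repeats with 2 bases between them, an ISRE-like motif bound by interferon regulatory factors, and to TTCNNNGAA, a GAS-like motif bound by STAT factors; the motifs do not overlap each other in these windows.
Gm12185, chr11:48927183-48927432, minus strand: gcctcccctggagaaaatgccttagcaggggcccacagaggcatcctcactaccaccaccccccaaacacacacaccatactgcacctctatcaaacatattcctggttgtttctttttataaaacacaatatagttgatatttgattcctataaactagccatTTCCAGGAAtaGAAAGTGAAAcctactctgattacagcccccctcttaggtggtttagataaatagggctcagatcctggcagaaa
Gm12250, chr11:58183593-58183842, plus strand: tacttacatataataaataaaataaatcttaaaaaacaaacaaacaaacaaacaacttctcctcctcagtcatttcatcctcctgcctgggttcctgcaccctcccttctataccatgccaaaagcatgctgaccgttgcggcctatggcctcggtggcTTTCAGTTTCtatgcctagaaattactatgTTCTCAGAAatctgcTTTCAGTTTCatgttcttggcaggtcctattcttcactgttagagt
Gm1966, chr7:106644646-106644895, minus strand: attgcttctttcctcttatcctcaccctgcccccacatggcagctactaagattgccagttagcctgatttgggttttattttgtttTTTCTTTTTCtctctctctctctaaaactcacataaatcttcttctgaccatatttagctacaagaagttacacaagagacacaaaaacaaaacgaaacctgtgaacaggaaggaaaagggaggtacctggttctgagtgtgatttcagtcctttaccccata
Gm5431, chr11:48902153-48902402, minus strand: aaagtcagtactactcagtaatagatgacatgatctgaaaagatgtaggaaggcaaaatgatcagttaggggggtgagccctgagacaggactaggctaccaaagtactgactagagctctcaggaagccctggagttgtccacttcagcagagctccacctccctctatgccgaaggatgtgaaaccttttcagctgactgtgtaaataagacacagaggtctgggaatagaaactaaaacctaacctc

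The window of Gm12185 holds a GAS-like match that starts 86 bases before the start and an ISRE-like match at 75. That of Gm12250 has ISRE-like matches at 91 and 46 with a GAS-like match at 61 between them. Gm1966 has 1 ISRE-like match, at 163, and the window of Gm5431 has none of either. Gm8995 and Gm4070 have no window of this length in that table, so they were not searched. For Gm4951, Gm4841 and Gm5970 no match to either motif was found, and some of these may lack an entry. Gm5431 fell at 180 min as well, so among the windows shown a match did not set apart the members that fell. Among all 32851 promoter windows of this length, 2.98% hold the ISRE-like and 7.02% the GAS-like motif; among the 77 windows of members the shares were 10.4% and 6.49%. Members outside the GTPases with an ISRE-like match went both ways at 180 min. Gm26797, Gm31718 and Gm46224 rose by 0.46, 0.88 and 0.49, and Gm4117 and Gm5150 changed by -0.84 and -0.48. A match describes letters and shows no binding.

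All 9 GTPase members fell at 180 min against macrophages alone, where 16% of all genes fell. Their median log2 fold change was -1.05, and 5 fell by more than 2-fold. In all 9 the 2 groups did not overlap, as in 14.8% of all genes in that direction. At 45 min 4 fell (Gm8995, Gm1966, Gm4951 and Gm5970) and at 90 min 3 fell, by less than at 180 min, and none rose. All 4 calls at 45 min were lost with the trend on length and GC content removed, where the values were 0.05, -0.09, 0.01 and -0.34. That of Gm4951 was lost under 8 of 23 alternatives in all and that of Gm5970 under 4.

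Gm8995, the most abundant member of all, had 1517, 1600, 1540 and 1611 CPM in macrophages alone, 1306 to 1464 at 45 min, 1419 to 1562 at 90 min and 841, 915, 981 and 1002 at 180 min. The 180 min libraries were far below all others. The change was -0.74 ± 0.04 (SE, adjusted p = 2.72e-22). Gm1966, the second most abundant, stepped down at each time: 528 to 561 CPM in macrophages alone, 428 to 479 at 45 min, 370 to 438 at 90 min and 230 to 271 at 180 min, a change of -1.07 ± 0.05. At 45 min the changes were -0.17 and -0.27, and the call of Gm8995 was also lost without 45 min library 4 (-0.13).

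Gm12250, whose product Irgb10 acts on bacterial membranes, had 71.6 to 76.8 CPM in macrophages alone, 76.3 to 80.2 at 45 min, 68.2 to 84.8 at 90 min and 37.8, 46.5, 44.1 and 43.4 at 180 min. The first 3 groups overlap, and 180 min stands below them, with a change of -0.79 ± 0.06. Gm12185 had 35.4 ± 2.2 CPM (SD, n = 4) in macrophages alone, 32.4 ± 1.4 at 45 min, 32.8 ± 3.0 at 90 min and 16.7 ± 1.1 at 180 min. Gm5431 fell by 0.90 and Gm4951 by 1.05 at 180 min. Gm4841 had the largest fall of the 9, of 1.52, from 11.2 to 15.4 CPM down to 4.04 to 5.52. The smallest was that of Gm4070, of 0.57.

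Their summed share of counts was 0.265% ± 0.008 (SD, n = 4) in macrophages alone, 0.233% ± 0.009 at 45 min, 0.236% ± 0.010 at 90 min and 0.151% ± 0.011 at 180 min. This is a large part of the share of all 286 members, which was 0.538% ± 0.020, 0.487% ± 0.020, 0.576% ± 0.024 and 0.466% ± 0.031. The difference at 180 min against macrophages alone had an exact permutation p of 0.0286 (adjusted 0.0443), and those at 45 and 90 min had exact permutation p-values of 0.0571 each (adjusted 0.0783). Without Gm8995 the difference at 180 min was -0.0110 percentage points with an exact permutation p of 0.514.

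**Figure D5:**
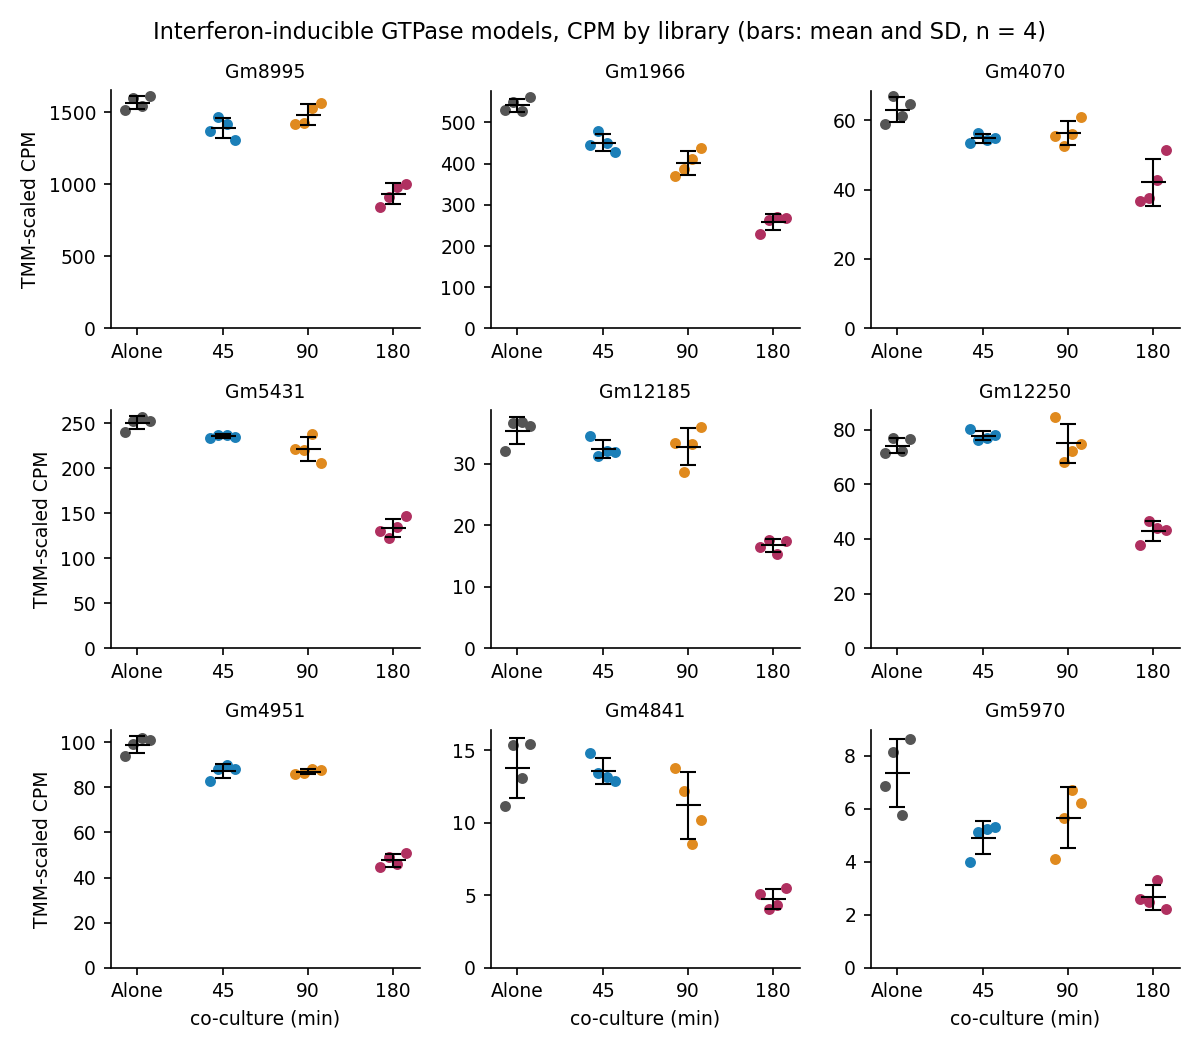
CPM (TMM-scaled, axes from 0) of the 9 interferon-inducible GTPase members in every library, by minutes of co-culture, with the mean and SD of 4. In each panel all 4 libraries at 180 min lie below all libraries of macrophages alone.

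The other coding members and pseudogenes showed mixed changes. Among the pseudogenes Gm7497 fell by 1.47 at 45 min and Gm16464 by 1.04 at 180 min. Gm16286, one of the 10 most abundant members, rose by 0.23 at 45 min and was not called at 90 or 180 min against Alone. Gm6377, on chromosome X, had 49.6 to 55.6 CPM in macrophages alone, 68.5 to 73.7 at 45 min, 75.7 to 100.1 at 90 min and 60.5 to 74.7 at 180 min, above macrophages alone in every library of the 3 times. It rose by 0.43, 0.78 and 0.31. With the trend on length and GC content removed the first was 1.04 and the call at 180 min was lost (0.17, adjusted p = 0.0679). Of 5 zinc finger genes of 1 chromosome 2 cluster, grouped after their values were seen, 4 rose at 180 min, among them Gm14410 by 1.02 and Gm14325 by 0.81. Of all genes 15.1% rose at 180 min. How reads that fit several genes of the cluster were counted is not given, so these rises may not be separate. A group of 4 members are paired immunoglobulin-like receptor genes or pseudogenes, which encode activating and inhibitory receptors for class I molecules; of these Gm15922 rose by 0.43 at 90 min and 0.39 at 180 min, Gm15931 rose by 0.26 at 90 min, a call lost under 10 of 23 alternatives, and Gm14548 was called in no comparison.

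Gm10800 is a model of satellite-like repeat sequence on chromosome 2, where reads from many copies can fall. It rose by 2.30 at 180 min in edgeR (adjusted p = 0.000522) and was not called by DESeq2 (adjusted p = 0.132). Its libraries scattered widely, with 0 to 5.79 CPM in macrophages alone. Among members called in no comparison were Gm34643, with 39.9 ± 0.7 CPM (SD, n = 4) in macrophages alone and 39.1 ± 2.5 at 180 min, Gm44250 (39.7 ± 4.2 and 35.9 ± 2.6) and the pseudogene Gm11425 (19.5 ± 1.9 and 18.6 ± 0.4).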

How the data were processed

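The values are raw counts, which the authors deposited without normalization as 1 table with a column for each of the 16 libraries. Per the labels' protocols, ribosomal RNA was removed from total RNA before library preparation with a kit that keeps strand. Per the submitters' processing notes, STAR 2.7.9a, SAMtools and HTSeq were used with the genome build mm39. Not given in the sources used here are the strand setting, how reads that fit several genes were treated and whether human reads were separated. Column names give the group but no replicate number, so libraries are numbered in file order within a group.

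Symbols came from a table of gene names (52083 IDs matched). Classes, lengths and distances came from GENCODE M21, which is for an older build than mm39, so no gene coordinates from it are printed. The only coordinates printed are those of the 4 promoter windows, on GRCm38.p6, also an older build than mm39. All 16 libraries were fitted together with edgeR 4.0.16 (R 4.3.3; filterByExpr, TMM factors, quasi-likelihood F test, group as the only term), with Benjamini-Hochberg adjustment over 14168 genes. The biological coefficient of variation was 7.81%. SE is the absolute log2 fold change divided by the square root of F. Printed CPM values use TMM-scaled library sizes. Shares of counts were compared with exact permutation tests. Members were compared with their hosts in a model with library as a block and an interaction of feature kind and group. Both fits were tested on simulated data. Alternatives were DESeq2 1.42.0, other size factors, no filter, thinned libraries, a length and GC trend, only the 2 groups compared, each library left out, other CPM minimums of 1 and 10 and other denominators.

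The members and lists were chosen with earlier results of these data known. Genes named are the most abundant members, up to 8 called members with the largest changes in each direction and time whose groups do not overlap (up to 4 between times), up to 4 per class by p over the 3 times, hosts, list genes and up to 5 uncalled members. Families of GTPases, receptors and zinc fingers, Gm14005, Gm36933, Gm37082, Gm43788, Gm44667 and Gm45223 were added after their values were seen.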

Additional observations from a re-analysis of the deposited data

Results flagged for a closer look

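The CPM of 83 members and 8 shares of counts were checked in each group of 4 libraries for 1 library far from the other 3 (Dixon's test at 95%), in 364 sets of 4 values. It found 29, where chance gives about 5% of the sets.

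In macrophages alone this held for 7 members. Gm37334 had 5.8 CPM in library 2 and 4.19 to 4.45 in the others. Gm37352 had 18.4 CPM in library 1 and 14.3 to 14.8 in the others. Gm44423 had 4.91 CPM in library 3 and 5.88 to 6.01 in the others. Gm44033 had 1.99 CPM in library 4 and 2.49 to 2.55 in the others. Gm12185 had 32.1 CPM in library 1 and 36 to 36.8 in the others. Gm8066 had 3.37 CPM in library 2 and 4.22 to 4.34 in the others. Gm10800 had 5.79 CPM in library 4 and 0 to 0.613 in the others.

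In the 45 min group this held for 8 members. Gm49759 had 76.9 CPM in library 2 and 67.9 to 68.6 in the others. Gm45191 had 4.53 CPM in library 2 and 2.97 to 3.11 in the others. Gm7497 had 0.916 CPM in library 1 and 1.81 to 1.94 in the others. Gm44423 had 6.13 CPM in library 2 and 3.85 to 4.12 in the others. Gm5970 had 3.99 CPM in library 1 and 5.11 to 5.3 in the others. Gm37488 had 7.42 CPM in library 2 and 6.08 to 6.25 in the others. Gm11425 had 22.4 CPM in library 1 and 17.8 to 18.2 in the others. Gm37082 had 3.57 CPM in library 2 and 1.98 to 2.15 in the others.

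In the 90 min group this held for 8 members. Gm16286 had 83.3 CPM in library 4 and 93.2 to 94.2 in the others. Gm43727 had 6.73 CPM in library 4 and 3.61 to 4.09 in the others. Gm7497 had 2.92 CPM in library 1 and 4.95 to 5.24 in the others. Gm6545 had 74.7 CPM in library 3 and 64.5 to 65.8 in the others. Gm24336 had 3.07 CPM in library 1 and 6.4 to 6.86 in the others. Gm15922 had 24.8 CPM in library 1 and 17.8 to 19 in the others. Gm14325 had 6.23 CPM in library 2 and 11.8 to 12 in the others. Gm37082 had 8.53 CPM in library 4 and 4.89 to 5.47 in the others.

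In the 180 min group this held for 6 members. Gm1966 had 230 CPM in library 1 and 264 to 271 in the others. Gm17024 had 2.73 CPM in library 1 and 5.7 to 6.2 in the others. Gm43727 had 2.66 CPM in library 2 and 1.27 to 1.31 in the others. Gm45191 had 6.82 CPM in library 1 and 11 to 11.6 in the others. Gm44667 had 6.07 CPM in library 1 and 8.2 to 8.38 in the others. Gm37082 had 4.77 CPM in library 1 and 6.07 to 6.25 in the others.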

How the results depend on the processing

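No paired analysis was possible because the columns carry no replicate number. DESeq2, other size factors, no filter, thinned libraries and fits of only the 2 groups kept every count of called members within 1.5 times and every median within the spread between libraries. The trend on length and GC content (99.4% of tested genes have both) did not: against Alone it gave 17 rises, 36 falls and a median of -0.0026 at 45 min, 24 falls and a median of 0.13 at 90 min and a median of 0.094 at 180 min; from 45 min it gave 28 falls and a median of 0.17 to 90 min, and 57 falls and a median of 0.14 to 180 min. The cause was not tested. Of 260 calls of named members, 48 were lost under at least 1 alternative, 39 of them without 1 library. With the trend removed Gm8995 at 45 min (0.049), Gm4951 at 45 min (0.0099), Gm44668 at 45 min (0.011), Gm22442 at 180 min (-0.068), Gm20559 from 45 to 180 min (-0.15) and Gm6377 from 45 to 90 min (-0.32) changed sign.

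Another minimum changes the number of members, 286 at a mean CPM of 3, of which 21% fell at 45 min and 51.7% rose from 45 to 90 min (6.11% and 14.8% of all genes). With a mean CPM of 1 or more (838 members), 163 fell (19.5%) at 45 min (median -0.25), 137 rose and 24 fell at 90 min, 147 rose and 64 fell at 180 min, 320 (38.2%) rose from 45 to 90 min (median 0.55), 10 rose from 90 to 180 min and 327 rose from 45 to 180 min (median 0.52). With 10 or more (71 members), 10 fell (14.1%) at 45 min (median -0.035), 32 rose and 3 fell at 90 min, 25 rose and 19 fell at 180 min (median 0.076), 40 rose (56.3%) and 3 fell from 45 to 90 min (median 0.24), 2 rose and 27 fell from 90 to 180 min (median -0.17), and 30 rose and 19 fell from 45 to 180 min (median 0.036).

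Relative to the host, pairs with at least 10 counts in every library gave 10 rises and 7 falls at 90 min, 17 rises and 6 falls at 180 min, 58 rises and 4 falls from 45 to 90 min, 1 fall from 90 to 180 min and 4 falls from 45 to 180 min. With each library left out these counts were 2 to 4 rises and 0 to 4 falls at 90 min, 2 to 6 rises and 1 to 3 falls at 180 min, 20 to 37 rises and 1 to 2 falls from 45 to 90 min and 0 to 1 falls from 90 to 180 min; members called higher from 90 to 180 min were 5 to 10, the 10 without 90 min library 4 and 8 without 180 min library 1.

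The difference in the members' share of counts at 45 min was -0.0598 percentage points over protein-coding counts and -0.0586 without mitochondrial genes, both with an exact permutation p of 0.0286, and -0.0604 to -0.0452 with each library left out. At 90 min it was 0.0570, 0.0489 and, without Gm8995, 0.0469 (exact permutation p of 0.0286 each), and 0.0277 to 0.0459 with each library left out. At 180 min it was -0.0599 over protein-coding counts (exact permutation p of 0.0571) and -0.0110 without Gm8995, and from 45 to 180 min 0.0218 without Gm8995, of the other sign than the -0.0210 with it. For intronic members, leaving out each library gave -0.0205 to -0.0151 at 45 min, 0.0267 to 0.0337 from 45 to 180 min, and -0.0005 to 0.0065 from 90 to 180 min, negative without 90 min library 3 and without 180 min library 3 (-0.00054). Members near the minimum of 3 CPM have few counts in the shallowest libraries, which limits their calls.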
